A study of Mus musculus with 20 samples.

Results

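Heat shock factor 1 and 9 cytosolic chaperones and co-chaperones were followed through mouse pancreatic ductal adenocarcinomas. The members were chosen by name: Hsf1, Hspa1a, Hspa1b, Hspa8, Hsp90aa1, Hsp90ab1, Hsph1, Dnajb1, Hspb1 and Bag3. These are 10 of the 20636 genes of the deposited table, and all 10 were among the 16648 genes abundant enough to test. RNA came from whole tumours, so cancer cells, fibroblasts, vessels and immune cells all contribute.

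Every mouse carried a Cre-inducible tdTomato reporter at Rosa26 on both alleles and Ptf1aCreER, which places tamoxifen-inducible Cre in acinar cells, the enzyme-making cells of the pancreas. All received 5 mg of tamoxifen by mouth daily for 3 days at 8 to 10 weeks and were then aged until they fell ill, so the age at collection is not fixed. KPT mice also had both Trp53 alleles floxed, KAT mice had both Cdkn2A-Arf alleles floxed, and KPAT mice had both genes floxed. Each genotype has 5 tumours, numbered 1 to 5 in the labels, and the 5 KT samples, with neither suppressor floxed, are not analysed here. Nothing more in the labels says that each number is a separate mouse, so p-values measure the spread between these samples. Library numbers do not overlap between genotypes, and a batch running with them cannot be told apart from genotype.

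The heat shock response is the cell's defence against misfolded protein. HSF1, a transcription factor held inactive by chaperones, is released when clients overload them, forms trimers and binds heat shock elements, which are inverted repeats of the unit GAA. Its classic targets are the inducible HSP70 genes Hspa1a and Hspa1b, the J-domain partner Dnajb1, the nucleotide exchange factors Hsph1 and Bag3, the small heat shock protein Hspb1 and the inducible HSP90 gene Hsp90aa1, whereas Hspa8 and Hsp90ab1 are the constitutive HSP70 and HSP90 genes.

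The heat shock element is shown here for the members whose start site is in the RefSeq promoter table, 6 of the 10 (Hspa1a, Hspa1b, Hsph1, Dnajb1, Hspb1 and Bag3), since these genes are known targets of 1 regulator. Each window runs from 250 bases before to 50 after the RefSeq start (GRCm38.p6). The letters searched were GAANNTTC and TTCNNGAA, each of which reads the same on both strands, and their 3-unit extensions, which add NNGAA to the former or NNTTC to the latter and so overlap the shorter forms. Of 32817 such windows in the table, 7.86% hold GAANNTTC, 8.51% hold TTCNNGAA, 0.603% hold a 3-unit form and 15.1% hold any of them. Of the 6 members 5 hold at least 1 form, and Dnajb1 holds none in the window searched. Hsph1 and Dnajb1 have 2 windows each, and only the 1 nearest the annotated gene start was searched. A match is a description of letters and not a bound site, and its absence says nothing of what binds there.

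The inducible HSP70 pair carries the same site, shown in capitals within 40 bases at chr17:34972237-34972276 (minus strand) for Hspa1a and chr17:34959319-34959358 (minus strand) for Hspa1b. Hspb1 carries a pair of sites at chr5:135887786-135887825 and chr5:135887806-135887845 (plus strand).
Hspa1a and Hspa1b: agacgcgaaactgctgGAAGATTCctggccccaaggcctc
Hspb1, farther site: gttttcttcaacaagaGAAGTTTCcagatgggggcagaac
Hspb1, nearer site: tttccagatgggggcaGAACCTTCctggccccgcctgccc
The Hspa1a and Hspa1b element lies 104 to 97 bases before the start, and the Hspb1 elements lie 117 to 110 and 97 to 90 bases before it. Hsph1 holds the 3-unit form TTCTGGAAAGTTC, 36 to 48 bases after its RefSeq start (chr5:149636288-149636300, minus strand), and TTCTCGAA 33 to 26 bases before it. Bag3 holds GAAGTTTC at 42 to 49 bases after its start (chr7:128523625-128523632, plus strand) and no form in the 250 bases before it.

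Hspa1a and Hspa1b are near copies, and their upstream windows are printed to show how alike they are. The windows are chr17:34972157-34972406 and chr17:34959239-34959488, both on the minus strand, with the bases that differ in capitals.
Hspa1a: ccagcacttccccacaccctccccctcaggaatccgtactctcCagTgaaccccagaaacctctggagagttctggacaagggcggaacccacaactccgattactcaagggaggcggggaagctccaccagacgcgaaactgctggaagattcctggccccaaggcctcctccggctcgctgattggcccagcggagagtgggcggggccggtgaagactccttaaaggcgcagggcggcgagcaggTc
Hspa1b: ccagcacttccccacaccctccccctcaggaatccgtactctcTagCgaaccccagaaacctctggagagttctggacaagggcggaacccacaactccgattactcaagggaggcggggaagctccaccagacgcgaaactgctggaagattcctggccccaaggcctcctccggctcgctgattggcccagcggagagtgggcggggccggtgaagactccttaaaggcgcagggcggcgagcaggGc
Of 250 bases, 247 (98.8%) are identical. The substitutions from Hspa1a to Hspa1b, counted from 1 at the 5′ end of the window, are C44T, T47C and T249G.

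Bag3 and Dnajb1, which changed in opposite directions in KAT against KPT, have upstream windows with no heat shock element of these forms, at chr7:128523333-128523582 and chr8:83607925-83608174, both on the plus strand.
Bag3: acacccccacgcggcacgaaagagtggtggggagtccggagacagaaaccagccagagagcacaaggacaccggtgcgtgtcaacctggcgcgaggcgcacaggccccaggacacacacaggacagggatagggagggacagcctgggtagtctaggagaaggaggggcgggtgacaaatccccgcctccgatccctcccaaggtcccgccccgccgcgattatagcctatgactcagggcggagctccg
Dnajb1: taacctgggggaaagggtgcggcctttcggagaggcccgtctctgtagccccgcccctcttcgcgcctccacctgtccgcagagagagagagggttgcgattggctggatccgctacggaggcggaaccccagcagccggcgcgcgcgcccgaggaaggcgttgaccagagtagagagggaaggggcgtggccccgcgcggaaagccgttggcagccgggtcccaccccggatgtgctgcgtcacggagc

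Libraries held 14696138 to 26248484 gene-assigned reads. Trp53 ranged over 22.7 to 26.3 in the KPT tumours, 32.9 to 57.2 in KPAT and 99.0 to 148 in KAT, and was lower in all tumours where it was floxed. Cdkn2a was not lower where it was floxed (KPT 216 to 335, KAT 149.98 to 690, KPAT 268 to 907), and its total can include exons outside the deleted part, so it does not check that deletion. Epithelial and ductal markers were present in every tumour, with a sum over 12 genes of 7517 to 20864. Summed markers of 12 fibroblast genes ranged over 1103 to 4531 for KPT, 7312 to 10688 for KAT and 5993 to 15378 for KPAT, without overlap between KPT and the other groups. Spearman correlations over genes were 0.934 to 0.989 within genotypes and 0.903 to 0.973 between them.

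Levels below are in the deposited unit, reads divided by a factor for each library, with 19.5 reads per unit on average, and are mean ± SD over n = 5 tumours. Each test was made in limma on log2(normalized count + 1), 1 fit over all 15 tumours, 2-sided, and a gene was called at an adjusted p (Benjamini-Hochberg over all 16648 genes) under 0.05. Fold changes are on that log2 scale, which understates the change of low genes. In whole tumours, fewer cells of a type and less RNA per cell cannot be told apart.

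Per kilobase of exon, the 10 genes spanned more than 2 orders of magnitude in level. Hsp90ab1 was highest, with a median of 864 per kilobase over the 15 tumours, above 99.9% of 16615 genes with a length. Hspa8 followed at 325, then Hsp90aa1 at 94.5 and Hspb1 at 93.3. Bag3 was at 51.1, Dnajb1 at 18.0, Hspa1b at 15.8, Hsph1 at 6.49, Hsf1 at 5.65 and Hspa1a at 2.57. The ranges over tumours overlapped between all neighbours in this order except at Hsp90ab1 above Hspa8 and at Bag3 above Dnajb1. Thus both constitutive chaperones were among the most abundant transcripts of these tumours, while the regulator Hsf1 lay near the middle, above 55.4% of genes, and Hspa1a below it, above 38.3%.

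**Figure D1:**
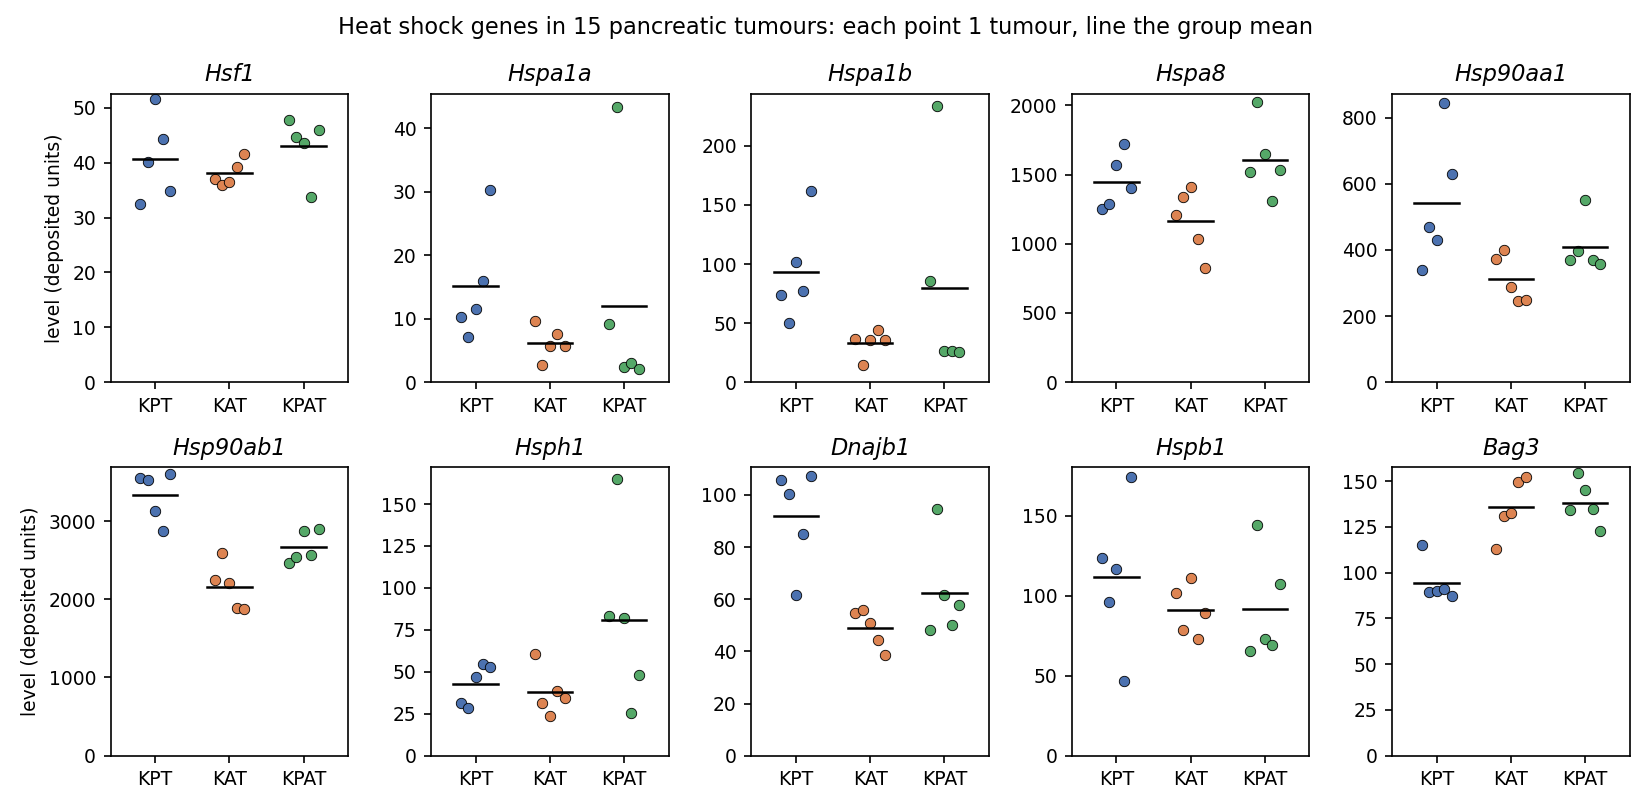
Level of each of the 10 genes in the deposited unit (vertical axes, each from 0) in KPT, KAT and KPAT tumours; each point is 1 tumour and the line the mean of 5. Bag3 sits lower in KPT, Dnajb1 and Hsp90ab1 sit higher there, and 1 KPAT tumour carries the KPAT means of Hspa1a and Hspa1b.

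KAT against KPT sets tumours with floxed Arf against tumours with floxed Trp53. Of the 10 genes 4 were called: Hsp90aa1, Hsp90ab1 and Dnajb1 fell and Bag3 rose, against 28.9% of all genes tested (15.6% higher and 13.3% lower). The groups did not overlap for 3 members, Hspa1b, Hsp90ab1 and Dnajb1, all lower in KAT, against 17.6% of all genes (9.24% higher and 8.38% lower). The median log2 fold change of the 10 was -0.48, beside 0.03 over all genes. KPAT against KPT asks what floxed Arf adds to floxed Trp53. Only Bag3 was called, higher, against 16.5% of all genes (9.13% higher and 7.4% lower). It was also the only member without overlap, against 9.97% (5.03% higher and 4.93% lower). The median over the 10 was -0.27, beside 0.02. Both comparisons use the same 5 KPT tumours. KPAT against KAT called none of the 10 in limma, edgeR or DESeq2, and 0.0481% of all genes were called by limma (0.036% higher and 0.012% lower). Its median over the 10 was 0.32, beside -0.00. No member was without overlap there, against 2.72% (1.42% higher and 1.3% lower).

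**Figure D2:**
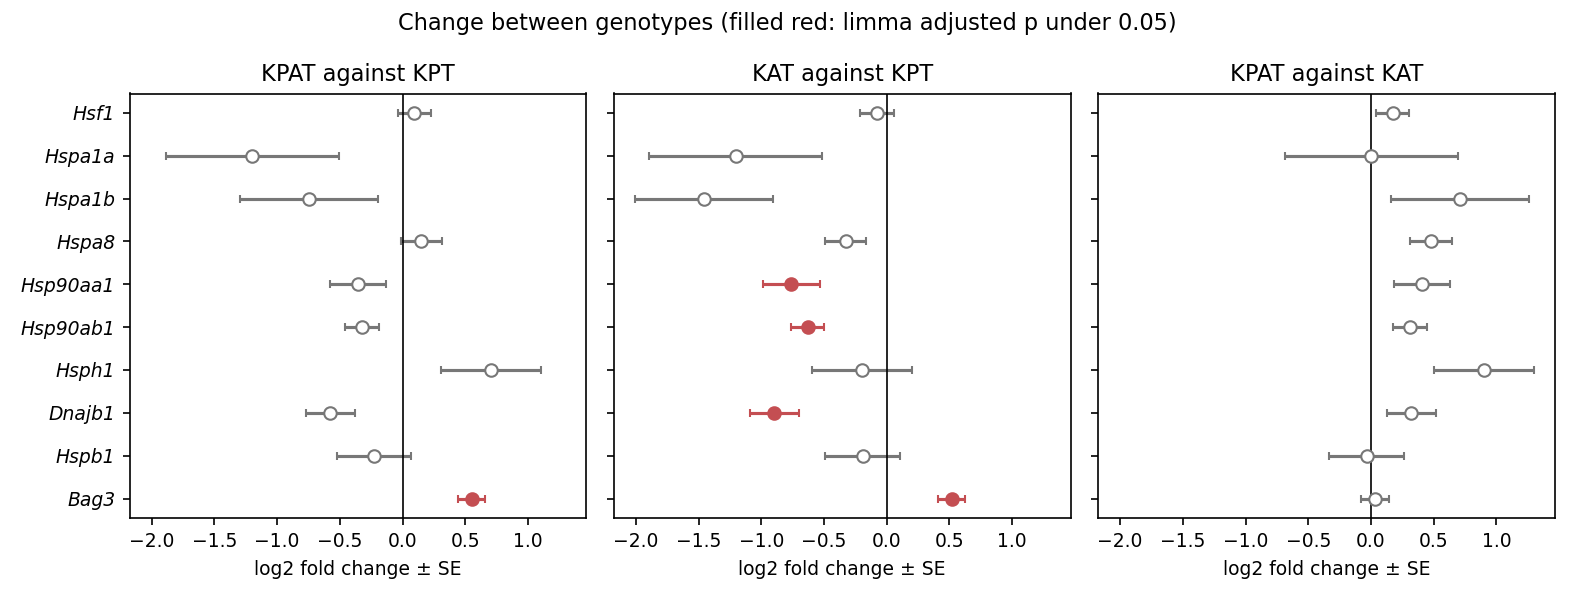
Log2 fold change with its SE (horizontal axis) for the 10 genes in the 3 comparisons; filled red points are called by limma at an adjusted p under 0.05. In KAT against KPT 4 points are filled, in KPAT against KPT only Bag3, and in KPAT against KAT none.

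Hsf1 (ENSMUSG00000022556, chr15:76477422-76501913), the regulator, varied least over the tumours, with a highest value 1.59 times the lowest. It was at 32.5, 40.1, 51.7, 44.3 and 34.8 in KPT 1 to 5, at 37.1, 36.0, 36.4, 39.1 and 41.6 in KAT, and at 47.7, 44.6, 43.5, 33.8 and 45.9 in KPAT. All 3 groups overlapped. Against KPT its log2 fold change was -0.08 (SE 0.13, limma adjusted p = 0.687) in KAT and 0.09 (SE 0.13, adjusted p = 0.664) in KPAT. The KAT value turned to 0.01 without KPT 3, the highest tumour. HSF1 is controlled mainly as a protein, which RNA levels do not measure.

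No heat shock factor gene changed between genotypes by this test. Of 5 tested genes of that list, Hsf1, Hsf2, Hsf4, Hsf2bp and the HSF1-binding protein gene Hsbp1, none was called in any comparison. Mean levels in KPT, KAT and KPAT were 14.8 ± 6.94, 14.5 ± 1.57 and 16.8 ± 4.15 for Hsf2 and 112 ± 20.5, 93.0 ± 6.73 and 106 ± 6.03 for Hsbp1. Hsf3 and Hsf5 are not analysed here.

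The inducible HSP70 genes Hspa1a (ENSMUSG00000091971, chr17:34969190-34972156) and Hspa1b (ENSMUSG00000090877, chr17:34956436-34959238), which refold proteins after stress, varied most. Hspa1b was at 73.7, 50.3, 102, 77.4 and 162 in KPT 1 to 5, at 36.7, 14.4, 36.0, 44.2 and 35.8 in KAT, and at 85.7, 233, 26.2, 26.0 and 25.9 in KPAT. Every KAT tumour lay below every KPT tumour, while KPAT split into 3 tumours under the whole KPT range and 2 inside or above it. Hspa1a was at 10.3, 7.16, 11.6, 15.98 and 30.3 in KPT, at 9.56, 2.69, 5.64, 7.62 and 5.66 in KAT, and at 9.09, 43.4, 2.40, 3.09 and 2.13 in KPAT. The same tumours, KPAT 2 and KPT 5, were the highest for both genes, and the same 3 KPAT tumours were low.

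In KAT against KPT the log2 fold change of Hspa1b was -1.46 (SE 0.55, limma adjusted p = 0.0592), from a mean of 93.0 ± 42.5 to 33.4 ± 11.2, and it missed the threshold. Without KPAT 2, which enters only through the shared spread, its adjusted p was 0.0158, with only the 2 groups fitted 0.013, and in DESeq2 0.0242. Hspa1b passed in only these 3 of 32 alternatives, over which its log2 fold change ran from -1.65 to -1.08. With the reads of both copies summed the value was -1.42 (adjusted p = 0.0706). For Hspa1a the log2 fold change was -1.20 (SE 0.69, adjusted p = 0.200).

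In KPAT against KPT, Hspa1a differed by -1.20 (SE 0.69, limma adjusted p = 0.245) and Hspa1b by -0.75 (SE 0.55, adjusted p = 0.370). These values turn on KPAT 2: without it the Hspa1a log2 fold change was -1.92 (adjusted p = 0.0275), past the threshold, and KPAT means of 12.02 ± 17.8 for Hspa1a and 79.5 ± 89.9 for Hspa1b rest on it. Over 31 alternatives the Hspa1a value ran from -1.92 to -0.30, and only that 1 passed. The Hspa1b value ran from -1.29 to -0.21 over 32 alternatives, and none passed. Over all 15 tumours the highest Hspa1a value was 20.4 times the lowest and that of Hspa1b 16.2 times. Their within-group SD on the log2 scale exceeded that of 91.1% and 86.0% of tested genes.

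Of the 31-base words in Hspa1a exons, 63.8% also occur in Hspa1b, and how the authors placed reads that fit both is not given in the sources used here, so the split between the copies is uncertain. Hspa1b held 79.3% to 92.4% of the summed level. Hspa1a rests on 35 to 1172 reads per library and overlaps Gm20481 on the opposite strand, whose reads cannot be told apart from its own where strand is not used.

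The constitutive HSP70 gene Hspa8 (ENSMUSG00000015656, chr9:40800984-40810087), which folds new proteins and uncoats vesicles, was steadier. It was at 1248, 1287, 1569, 1720.2 and 1399.9 in KPT, at 1208, 1338, 1412, 1036 and 824 in KAT, and at 1521.5, 2025, 1650.2, 1309.8 and 1535 in KPAT. All 3 groups overlapped, with KPAT 2 highest and KAT 5 lowest. The KAT difference from KPT was -0.33 on the log2 scale (SE 0.17, limma adjusted p = 0.147) and the KPAT difference from KAT 0.48 (SE 0.17, adjusted p = 0.320). KPAT differed from KPT by 0.15 (SE 0.17, adjusted p = 0.564). With array weights, which give erratic libraries less say, the former pair of differences passed, with adjusted p of 0.043 and 0.0411. The processed pseudogenes Gm15459 and Gm8355 share 38.6% and 29.6% of its 31-base words. Gm8355 reached at most 1.89, and Gm15459 is not analysed here.

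The inducible pair was low beside Hspa8 and varied between tumours, in the deposited unit and not per length. The sum of Hspa1a and Hspa1b was 4.47% to 13.7% of the Hspa8 level in KPT (median 6.73%), 1.28% to 5.02% in KAT (median 3.83%) and 1.73% to 13.7% in KPAT (median 2.22%). KPAT 1 and KPAT 2, at 6.23% and 13.7%, stood apart from the other 3 KPAT tumours, at 1.73% to 2.22%. These ratios are descriptions without a test.

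Hsph1 (ENSMUSG00000029657, chr5:149614287-149636376) encodes HSP110, which exchanges nucleotide on HSP70 and helps it dissolve aggregates. It was at 31.3, 28.1, 47.2, 54.9 and 52.9 in KPT, at 60.6, 31.7, 23.9, 38.3 and 34.2 in KAT, and at 83.1, 165, 82.0, 25.4 and 48.2 in KPAT. KPAT 1, 2 and 3 lay above all other tumours while KPAT 4 lay near the bottom. The KPAT difference from KPT was 0.70 (SE 0.40, limma adjusted p = 0.238) and that from KAT 0.90 (SE 0.40, adjusted p = 0.426). KAT differed from KPT by -0.20 (SE 0.40, adjusted p = 0.733). Without KPAT 4 the difference from KPT was 1.05 with an adjusted p of 0.049, past the threshold.

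Dnajb1 (ENSMUSG00000005483, chr8:83608193-83612653) encodes HSP40, the J-domain protein that hands clients to HSP70 and starts its ATP cycle. It was at 106, 101, 61.6, 85.0 and 107 in KPT, at 54.8, 55.7, 51.0, 44.2 and 38.7 in KAT, and at 48.2, 94.7, 61.8, 49.99 and 57.7 in KPAT. Every KAT tumour lay below every KPT tumour, and KPAT 2 was the one KPAT tumour high in the KPT range. Dnajb1 fell in KAT, from 92.1 ± 19.2 to 48.9 ± 7.27, a log2 fold change of -0.90 (SE 0.19, limma adjusted p = 0.00404). The KPAT difference from KPT, -0.58 (SE 0.19, adjusted p = 0.0546), missed the threshold. It passed in 5 of 32 alternatives, among them without KPT 3, the lowest KPT tumour (-0.71, adjusted p = 0.0213), without KPAT 2 (-0.74, adjusted p = 0.0205), and in DESeq2 (adjusted p = 0.0306).

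Both HSP90 genes, whose products hold kinases and hormone receptors in an activatable state, fell in KAT. The constitutive Hsp90ab1 (ENSMUSG00000023944, chr17:45567775-45573271) was at 3551, 3526, 3129.5, 2874 and 3606 in KPT, at 2248, 2591, 2206, 1884.5 and 1878.5 in KAT, and at 2460.5, 2540.5, 2869, 2568 and 2894 in KPAT. No KAT tumour reached the lowest KPT tumour, while of the KPAT tumours only KPAT 3 lay between those groups, KPAT 1, 2 and 4 lying inside the KAT range and KPAT 5 inside that of KPT. Its log2 fold change in KAT against KPT was -0.63 (SE 0.13, limma adjusted p = 0.00365), from 3337 ± 321 to 2162 ± 296, and the KPAT difference from KPT was -0.32 (SE 0.13, adjusted p = 0.112). With quantile scaling the KAT value was -0.38 and no longer past the threshold (adjusted p = 0.0883). DESeq2 put the KPAT difference past it (adjusted p = 0.0126).

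The inducible Hsp90aa1 (ENSMUSG00000021270, chr12:110690605-110702728) was at 341, 470.0, 429, 844 and 629.5 in KPT, at 372, 400.4, 288, 246 and 249 in KAT, and at 369, 396, 552, 369 and 357 in KPAT. KPT 1 lay inside the KAT range and KPT 4 far above all other tumours. Hsp90aa1 fell in KAT from 543 ± 198 to 311 ± 71.2, a log2 fold change of -0.76 (SE 0.22, limma adjusted p = 0.0206). The adjusted p rose to 0.0541 without KAT 4, 0.0522 without KAT 5 and 0.0577 with quantile scaling, so this call rests on those choices. KPAT, at 409 ± 81.6, differed from KPT by -0.36 (SE 0.22, adjusted p = 0.289). The level of Hsp90ab1 was 3.41 to 10.4 times that of Hsp90aa1 across tumours, with both extremes in KPT. Other genes share 51.5% of the Hsp90aa1 words and 13.2% of the Hsp90ab1 words. The pseudogenes with the largest shares of Hsp90aa1, Gm12346 and Gm5844, averaged 2.15 and 0.32.

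Hspb1 (ENSMUSG00000004951, chr5:135887919-135889563) encodes HSP27, an ATP-independent holder of unfolded clients and of the actin skeleton. It was at 123, 96.2, 116, 46.7 and 174 in KPT, at 102, 78.6, 111, 73.0 and 89.2 in KAT, and at 65.4, 144, 72.9, 69.4 and 107 in KPAT. The 3 groups overlapped, and both the highest and the lowest tumour were KPT. The log2 fold change from KPT was -0.19 (SE 0.30, limma adjusted p = 0.655) in KAT and -0.23 (SE 0.30, adjusted p = 0.637) in KPAT. Its copies Hsp25-ps1 and Gm9817, which share 55.4% of its words, are not analysed here.

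Bag3 (ENSMUSG00000030847, chr7:128523616-128546981) encodes the HSP70 exchange factor that, with small heat shock proteins, steers damaged clients to autophagy. It was at 115, 89.3, 89.9, 91.4 and 87.5 in KPT, at 113, 131, 132, 149 and 153 in KAT, and at 134, 154, 145, 135 and 123 in KPAT. All 5 KPAT tumours lay above KPT, and in KAT only KAT 1 lay inside the KPT range, just under KPT 1. Bag3 rose from 94.6 ± 11.4 in KPT to 136 ± 16.03 in KAT (log2 fold change 0.52, SE 0.11, limma adjusted p = 0.00334) and to 138 ± 12.1 in KPAT (0.55, SE 0.11, adjusted p = 0.0058). It was called in both comparisons under all 32 alternative analyses, with an adjusted p of at most 0.0203. KPAT and KAT differed by 0.03 (SE 0.11, adjusted p = 0.938). Bag3 shares no 31-base word with another gene but overlaps 2610306O10Rik on the same strand.

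**Figure D3:**
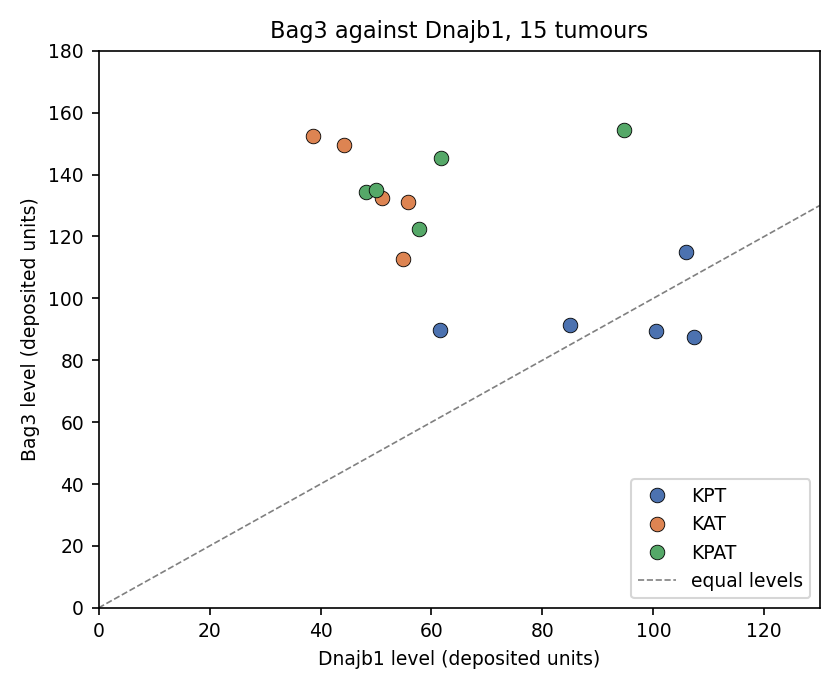
Bag3 level (vertical) against Dnajb1 level (horizontal), both in the deposited unit, for the 15 tumours; the dashed line marks equal levels. KPT tumours lie near the line and KAT and KPAT tumours above it, at a Bag3 to Dnajb1 ratio of at most 1.46 in KPT and at least 1.63 elsewhere.

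Bag3 and Dnajb1, both partners of HSP70, thus changed in opposite directions in KAT. The Bag3 level was 0.82 to 1.46 times the Dnajb1 level in KPT, 2.06 to 3.94 times in KAT and 1.63 to 2.79 times in KPAT. KPT did not overlap either group, a description given without a test because the pair was picked after its values were seen.

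Cell type markers moved with the same contrasts as these calls. In KAT against KPT 12 of 12 fibroblast, 6 of 10 macrophage and 4 of 10 endothelial markers rose and 6 of 12 epithelial and ductal markers fell. In KPAT against KPT 9, 4 and 3 rose and 3 fell. Of all genes tested, 15.6% were called higher and 13.3% lower in KAT, and 9.13% and 7.4% in KPAT. Other marker lists were mixed: among neutrophil markers Mmp9 rose and Retnlg fell in both comparisons. Among muscle markers Acta2 rose and Mylpf fell in KAT. Macrophage sums over 10 genes were 803 to 1424 for KPT, 1812 to 3278 for KAT and 1037 to 2057 for KPAT, endothelial sums over 10 genes 257 to 519, 332 to 1088 and 358 to 709, and epithelial sums 11894 to 20864, 7517 to 12163 and 8532 to 11252. No fibroblast, macrophage, endothelial or epithelial marker was at 0 in any tumour. KPAT 2, the tumour highest for 5 of the 10 heat shock genes, also had the highest fibroblast sum, 15378. Within KPAT it was highest for acinar, muscle, endothelial, macrophage, neutrophil and red blood cell sums too. It was lowest there for epithelial sums and at neither end for lymphocyte sums. KPT 5, the tumour highest for 3 of the 10, had a fibroblast sum of 3574, inside the KPT range. The part of cell composition in the heat shock differences was not tested.

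**Figure D4:**
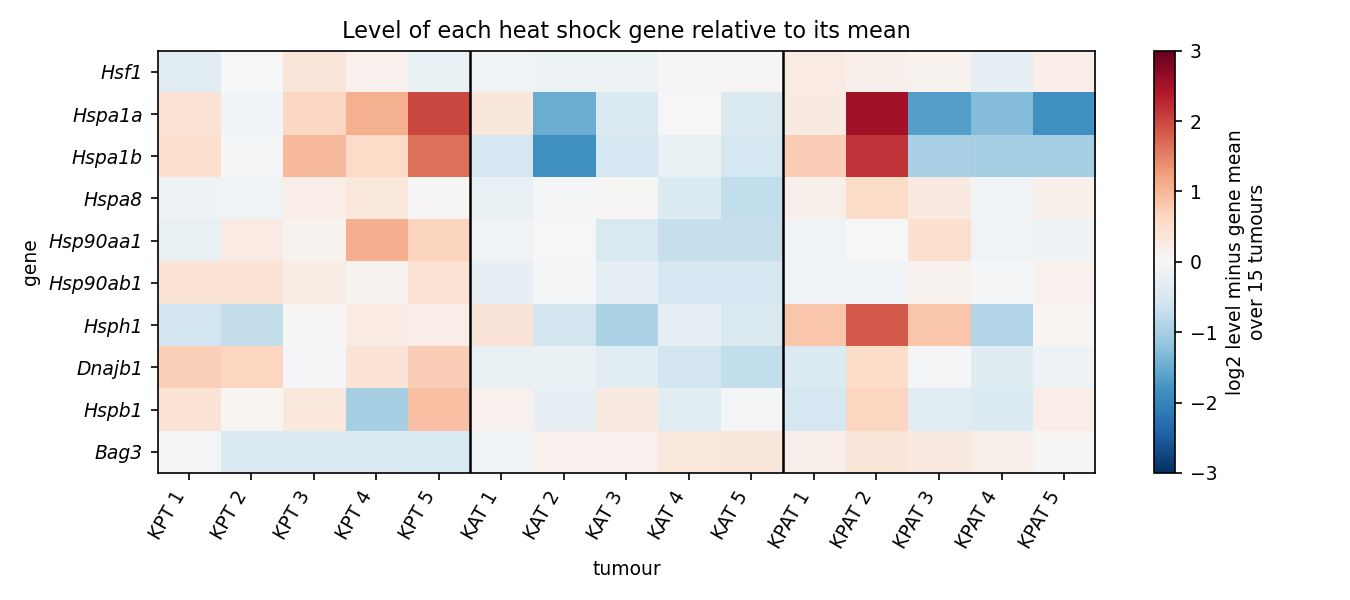
Log2 level of each gene (rows) in each of the 15 tumours (columns, grouped by genotype) minus that gene's mean over all 15, red above and blue below. Hspa1a, Hspa1b and Hsph1 change most between tumours, Hsf1 and Bag3 least, and KPAT 2 stands out in red.

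Tumour by tumour, KPAT 2 had the highest level of 5 members (Hspa1a, Hspa1b, Hspa8, Hsph1 and Bag3) and KPT 5 of 3 (Hsp90ab1, Dnajb1 and Hspb1). KAT 5 had the lowest level of 3 (Hspa8, Hsp90ab1 and Dnajb1). No KAT tumour was the highest for any member. Between tumours of one genotype, Hsp90ab1 and Bag3 varied less than most genes, with a within-group log2 SD above that of 5.27% and 5.72% of tested genes.

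Few pairs of the 10 genes passed an adjusted correlation test over the 15 tumours, while 13 had an unadjusted Pearson permutation p under 0.05. Of 45 pairs, 3 passed an adjusted p of 0.05 by Pearson and 3 by Spearman correlation (permutation tests with 100000 resamples, Benjamini-Hochberg over the 45 pairs). For each pair r is given again without the 2 tumours farthest from the median of the gene named first. Hspa1a and Hspa1b gave r = 0.94 and rho = 0.93 (permutation p = 1e-05 for each, the smallest these permutations can give, adjusted p = 0.00045). Their r was 0.87 without KPAT 2 and KPT 5. The copies share sequence, and how reads that fit both were placed is not given, so their levels may not be independent. Hsp90ab1 and Dnajb1 gave r = 0.83 (permutation p = 0.00016, adjusted p = 0.0036) and rho = 0.86 (permutation p = 7e-05, adjusted p = 0.00157), and r was 0.75 without KAT 5 and KPT 5.

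Hsp90ab1 and Bag3 ran against each other, with r = -0.72 (permutation p = 0.00273, adjusted p = 0.0409) and rho = -0.74 (permutation p = 0.00232, adjusted p = 0.0348), and r was -0.62 without KAT 5 and KPT 5. Within genotypes, after subtracting each group's mean, the Hspa1a and Hspa1b relation held (r = 0.97, adjusted permutation p = 0.00045). Hsph1 just missed there with Hspa1a (r = 0.74, adjusted permutation p = 0.0506) and with Hspa1b (r = 0.71, adjusted permutation p = 0.0606). The Hsp90ab1 relations did not pass, with r = 0.49 to Dnajb1 (adjusted permutation p = 0.359) and r = -0.30 to Bag3 (adjusted permutation p = 0.538). None of the 9 pairs with Hsf1 passed. Its closest partner was Hsph1, with r = 0.55 (permutation p = 0.032, adjusted p = 0.114), rho = 0.59 (permutation p = 0.022, adjusted p = 0.139) and r = 0.62 without KPT 1 and KPT 3. Those tumours were left out for their Hsf1 level, and KPAT 2, the highest for Hsph1, stayed in.

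Genes outside the list that tracked a member most closely were looked up among 14185 genes over the same 15 tumours, by Pearson correlation and without a test. All points share their libraries and genotypes. Hsp90ab1 was closest to Eif3d (r = 0.96), a subunit of a translation initiation factor, to Cct5 (0.95), a subunit of the CCT chaperonin, and to the nucleolar protein gene Ncl (0.95). Bag3 was closest to Armcx4 (0.93), the tyrosine kinase gene Bmx (0.91) and Armcx3 (0.91). Dnajb1 was closest to Fbxo36 (0.89), Hsf1 to the ubiquitin ligase gene Rnf20 (0.90), Hsp90aa1 to Wdr43 (0.91) and Hspa1b to Sh2d4a (0.89).

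The counts of related genes that follow are to be read against all genes tested, of which 15.6% were called higher and 13.3% lower in KAT and 9.13% and 7.4% in KPAT, both against KPT. The lists share some genes and are described without a test of any list. Among other HSP70-class genes 2 of 8 rose in both comparisons with KPT, Hspa12a and Hspa12b, distant relatives of the family, and none fell. Hspa12a went from 2.05 ± 0.72 in KPT to 9.82 ± 1.12 in KAT (log2 fold change 2.32, SE 0.29, limma adjusted p = 0.000232) and to 5.83 ± 1.74 in KPAT (1.52, SE 0.29, adjusted p = 0.00544). Hspa12b, known from vessel-lining cells, rose from 4.73 ± 2.03 in KPT to 10.9 ± 2.10 in KAT (1.33, SE 0.45, limma adjusted p = 0.0385). In KPAT it was at 17.7 ± 14.7, a wide spread between tumours (1.73, SE 0.45, limma adjusted p = 0.0189). The count in KAT was 1 without KPT 1, KPT 3, KPT 5 or any 1 of the 5 KAT tumours. The median of the list was -0.10 in KAT and 0.28 in KPAT.

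Of 17 other cytosolic J-domain co-chaperones, which drive HSP70 like Dnajb1, 3 rose and 5 fell in KAT (median -0.19) and 3 rose and 4 fell in KPAT (median -0.17). Dnaja4 rose, from 3.49 ± 1.46 in KPT to 10.9 ± 4.26 in KAT (log2 fold change 1.67, limma adjusted p = 0.0028) and 10.1 ± 2.82 in KPAT (1.58, adjusted p = 0.0083). The ribosome-bound Dnajc2 fell, from 80.0 ± 5.79 to 47.5 ± 7.41 in KAT (-0.76, adjusted p = 0.00053) and 55.4 ± 6.27 in KPAT (-0.54, adjusted p = 0.00863). The fall in KPAT covered 2 genes instead of 4 with KPT 3, KAT 2 and KPAT 5 left out.

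Of 18 HSP90 co-chaperones 6 fell and 2 rose in KAT (median -0.27), beside 13.3% of all genes lower and 15.6% higher, and 10 were not called. In KPAT 1 fell and 2 rose (median -0.11), a share near the 16.5% of all genes called. Nudc, an HSP90 cofactor of the dynein machinery, went from 189 ± 31.3 in KPT to 91.3 ± 12.05 in KAT (log2 fold change -1.04, SE 0.13, limma adjusted p = 0.000208) and 113 ± 11.8 in KPAT (-0.73, adjusted p = 0.00344). St13, which links HSP70 to HSP90, went from 232 ± 23.1 to 138 ± 15.9 in KAT (-0.75, adjusted p = 0.000423). The other genes that fell in KAT were Ahsa1, Stip1, Ptges3 and Fkbp4, named after their values were seen. The count that fell in KPAT was 2 without KPT 1, 3 without KPT 3 and 4 in DESeq2. The count that rose was 1 in KAT without KPT 1, KPT 2, KPT 4, KAT 2, KAT 3, KAT 4 or KAT 5, and 0 or 1 in KPAT without KPT 1, KPT 2, KPT 4, KPT 5, KAT 5 or any 1 of the 5 KPAT tumours.

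Of 11 other BAG proteins and HSP70 regulators 3 fell and 1 rose in KAT (median -0.23) and 1 fell in KPAT (median -0.19). These shares are near the 28.9% of all genes called in KAT and under the 16.5% called in KPAT. Bag1, the founding member, which couples HSP70 to the proteasome, went from 319 ± 79.4 in KPT to 149 ± 15.02 in KAT (log2 fold change -1.08, SE 0.14, limma adjusted p = 0.000255) and 178 ± 22.7 in KPAT (-0.82, SE 0.14, adjusted p = 0.00325). Bag4 fell in KAT (-0.61, adjusted p = 0.00702). The gene that rose there was Synpo2, a muscle protein with a BAG3-binding role, at an adjusted p of 0.0497 that was lost in 19 of 32 alternatives. Thus Bag3 and Bag1 were both called, in opposite directions, in both comparisons.

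The CCT chaperonin, which folds actin and tubulin, and its feeder prefoldin fell, 10 of 14 genes in KAT (median -0.55) and 6 of 14 in KPAT (median -0.29), with none higher. These counts are set beside 13.3% and 7.4% of all genes lower. Pfdn2 went from 81.2 ± 18.7 in KPT to 39.1 ± 3.99 in KAT (log2 fold change -1.03, SE 0.14, limma adjusted p = 0.000299) and 47.7 ± 2.09 in KPAT (-0.74, SE 0.14, adjusted p = 0.00481). Cct5 went from 355 ± 38.1 to 216 ± 20.5 in KAT (-0.71, SE 0.10, adjusted p = 0.000354).

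**Figure D5:**
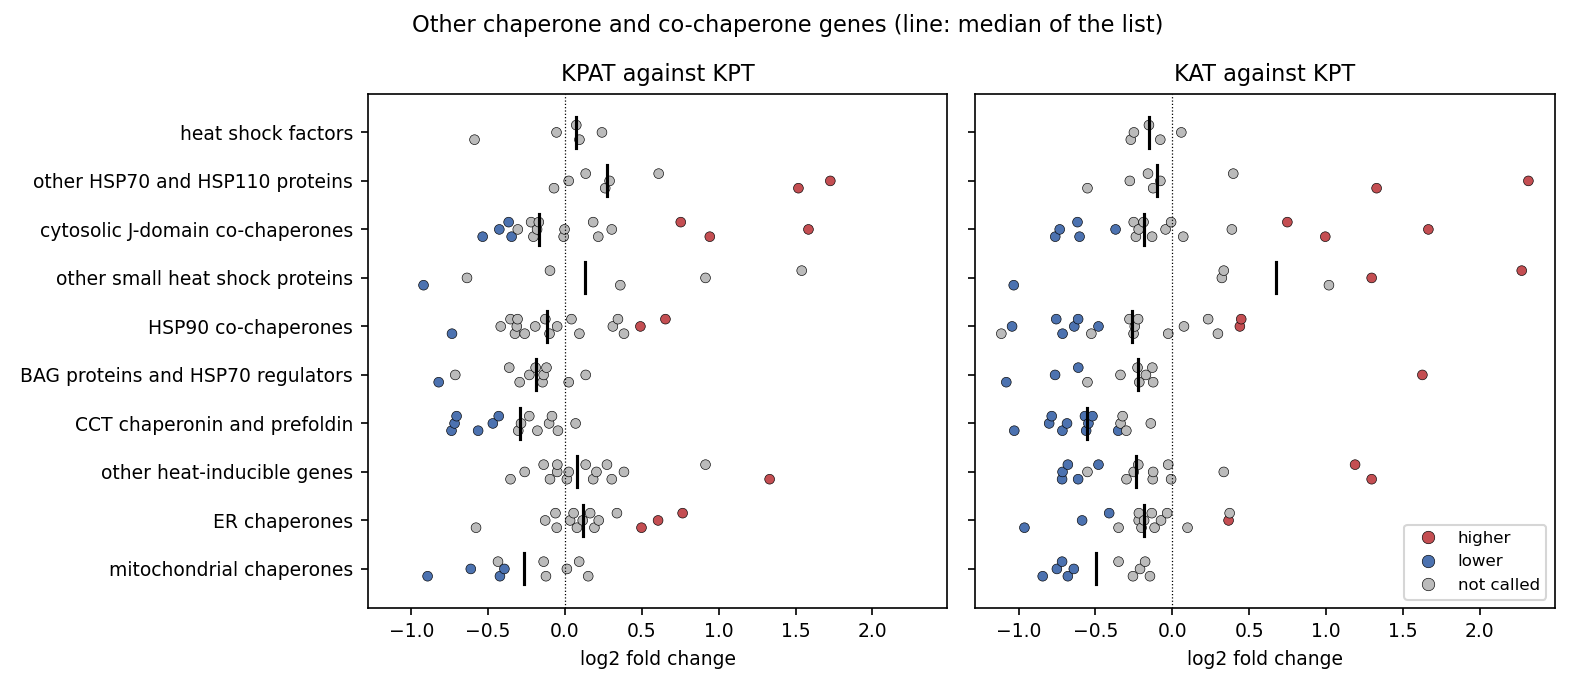
Log2 fold change (horizontal axis) of each tested gene of 10 chaperone lists (rows) in KPAT against KPT (left) and KAT against KPT (right), with the list median as a line; red and blue genes were called higher and lower by limma. The CCT and prefoldin row lies to the left of 0 in KAT, with 10 of 14 genes called lower and none higher.

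Mitochondrial chaperones, which fold imported proteins, fell for 5 of 10 genes in KAT (median -0.50) and 4 of 10 in KPAT (median -0.27), with none higher. Hspa9, the mitochondrial HSP70, went from 546 ± 85.8 in KPT to 325 ± 52.9 in KAT (log2 fold change -0.75, limma adjusted p = 0.00111) and 355 ± 33.6 in KPAT (-0.61, adjusted p = 0.00814). In KPAT the count was 2 without KPT 1, without KPT 2 or without KPAT 3. Of 15 endoplasmic reticulum chaperones 3 were higher and none lower in KPAT (median 0.12), and 1 was higher and 3 lower in KAT (median -0.18). These shares are near the 16.5% and 28.9% of all genes called, and the difference from the mitochondrial list was not tested. Hyou1, the HSP110 of that compartment, rose in KPAT from 101 ± 19.5 to 174 ± 48.8 (0.77, SE 0.18, adjusted p = 0.0136), and the count there was 1 without KPAT 2. The single gene higher in KAT, Dnajc3, was lost in 16 of 32 alternatives. Herpud1 fell in KAT from 236 ± 80.9 to 118 ± 32.9 (-0.96, SE 0.26, adjusted p = 0.0126).

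Of 6 other small heat shock proteins tested 2 rose and 1 fell in KAT (median 0.68) and 1 fell in KPAT (median 0.13). Of the 2 that rose, Hspb2 was very low, at 0.22 ± 0.21 in KPT and 0.96 ± 0.32 in KAT, and was at 0 in some tumours. Hspb6 fell from 17.0 ± 4.28 in KPT to 8.51 ± 2.85 in KAT (log2 fold change -1.03, limma adjusted p = 0.0129) and 9.14 ± 3.20 in KPAT (-0.92, adjusted p = 0.0348), the second call being lost without KPT 2, KPT 3, KPAT 1, KPAT 2, KPAT 3 or KPAT 5. Hspb8, the partner of BAG3 in clearing damaged clients, rose in KAT from 16.4 ± 6.56 to 38.3 ± 11.4 (1.30, adjusted p = 0.0151) and was at 31.5 ± 17.9 in KPAT (0.91, SE 0.36, adjusted p = 0.092). Hspb3 is not analysed here. A list of 16 further heat-inducible genes repeats many genes of the lists above. Of the 16, 2 rose and 5 fell in KAT (median -0.24), beside 28.9% of all genes called, and 1 rose in KPAT (median 0.08), beside 16.5%, or 2 without KPAT 4. Apart from Serpinh1, the genes called there, Hspd1, Hspe1, Ahsa1, Stip1, Fkbp4 and Hspb8, were already counted in those lists. Serpinh1, the collagen chaperone HSP47, rose in both, from 179 ± 68.0 to 392 ± 95.0 in KAT (1.19, adjusted p = 0.00461) and 435 ± 121 in KPAT (1.33, adjusted p = 0.00599), beside the fibroblast markers given above. Hspe1, the mitochondrial HSP10, fell in KAT from 113 ± 20.4 to 68.2 ± 9.19 (-0.72, adjusted p = 0.00134).

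In KPAT against KAT none of these lists held a called gene in limma. The nearest cytosolic gene was Dnaja1, a J-domain partner of HSP70, at 239 ± 38.0 in KPAT and 161 ± 15.3 in KAT (log2 fold change 0.56, SE 0.12, limma adjusted p = 0.120). Stip1, which bridges HSP70 and HSP90, was at 138 ± 27.3 against 92.5 ± 8.52 (0.56, SE 0.13, adjusted p = 0.157). DESeq2 called 284 genes of all tested there, among them 4 of the same 16 heat-inducible genes, all higher in KPAT.

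Immediate early genes respond within minutes to handling and other stimuli. Of 18, 4 fell in both KAT and KPAT (Atf3, Ier2, Zfp36 and Gadd45b, named after their values were seen), 2 rose in KAT and 1 rose in KPAT. The counts are to be set beside 28.9% and 16.5% of all genes called, and the list medians were -0.50 in KAT and -0.55 in KPAT. Their summed level was 1176 to 3290 for KPT, 1312 to 2019 for KAT and 1452 to 1947 for KPAT, with the lowest value in KPT 3. Without KPT 3 the count that fell was 8 in each comparison. It was 2 in KAT without KPT 2, KPT 5, KAT 2 or KAT 3, and 2 in KPAT without KPT 1. The gene that rose in KPAT was lost without KPT 1, KPT 2, KPT 3, KPAT 2 or KPAT 3. Their part in the heat shock differences was not tested.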

How the data were processed

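The tumour RNA was sequenced as TruSeq libraries (HiSeq4000), per the labels. HISAT2 2.0.4 placed the reads on GRCm38 (mm10), as the submitters' processing notes list. Which tool counted them, with what annotation, strand setting, rule for repeated sequence and scaling, is not given in the sources used here. Signal values deposited by the authors are reads divided by 1 factor per library: multiplied back, 100% of values came within 0.01 of a whole read. No column lay outside the 15 samples. A further allele that all groups share is not reported here.

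The 10 members, the gene lists and the alternatives were chosen with earlier results of these data known. Deposited values were brought to the scale of reads with 1 constant for all libraries, 19.478, the geometric mean of reads per unit, so that a pseudocount of 1 and a minimum mean of 10 apply to reads. The 16648 genes kept entered limma 3.58.1 (R 4.3.3) with a mean per genotype and a trended eBayes prior. Recovered reads went to edgeR 4.0.16 (quasi-likelihood, TMM) and DESeq2 1.42.0 as alternatives, beside other pseudocounts, minimums and scalings, array weights, robust eBayes, a replicate block, summed Hspa1a and Hspa1b reads, and libraries left out. The model was tested on simulated data.

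All 10 members were named. From other lists up to 2 genes with the smallest p per comparison were named by rule, others only where the text says so, and the 3 genes most correlated with each member could be named. Symbols, loci and exon lengths came from GENCODE vM21, and promoter sequences from RefSeq (GRCm38.p6). Counting error weighs most on Hspa1a. Tables and plots were made in Python 3.11.15 (numpy 2.4.6, pandas 2.3.3, matplotlib 3.10.9).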

Additional observations from a re-analysis of the deposited data

Results flagged for a closer look

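In 4 of 30 gene and genotype groups, 1 tumour lay far from the other 4 on log2(normalized count + 1). Its gap to its neighbour, over the group's range, was above Dixon's critical value of 0.71 on that scale. Levels are given in the deposited unit, and the gap ratios are not taken on it. Chance alone gives about 1 such group in 20. Hsf1 in KPAT 4 was low at 33.8 (gap ratio 0.734), and Hspa1b in KAT 2 was low at 14.4 (0.811). Hsp90aa1 in KPAT 3 was high at 552 (0.765), and Bag3 in KPT 1 was high at 115 (0.842). Bag3 in KPT 1 is the value that made KPT and KAT overlap for that gene.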

How the results depend on the processing

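Some alternatives leave a fold change as it is by design and can move only its p. These include a tumour left out of the third group, only the groups compared, robust eBayes, and the summed pair for other genes. Of 957 recomputed fold changes of the 10 genes, these included, 919 kept their direction and their side of the threshold, 13 gained a call, 4 lost one and 21 changed sign. None of the 21 was called. In KAT against KPT, Hsf1 turned to 0.032 without KPT 3, KAT 2 and KPAT 5, and ran from -0.15 to 0.013 with 1 library left out. In KPAT against KAT, Hspb1 turned to 0.092 with array weights, 0.0096 without KPT 1 and KAT 1, 0.0101 in edgeR and 0.0115 in DESeq2, and ran from -0.22 to 0.069 with 1 library left out. Bag3 there turned to -0.020 with quantile scaling, -0.042 with array weights and -0.032 without KPT 1 and KAT 1, and ran from -0.032 to 0.077 with 1 left out, and Hspa1a ran from -0.72 to 0.36.

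Genes called in KPAT against KPT (2752) were 1811 with only the groups compared and 1735 without KPT 3, KAT 2 and KPAT 5, and 1686 (without KPAT 2) to 2896 with 1 library left out. In KPAT against KAT (8) they were 17 with quantile scaling, 4 on the deposited scale, 15 with only the groups compared, 515 with array weights, 17 without KPT 3, KAT 2 and KPAT 5, 284 in DESeq2, and 7 to 36 (without KAT 2) with 1 left out. In KAT against KPT (4805) they were 3553 to 4836 with 1 left out. Quantile scaling turned the KAT split from 2599 higher and 2206 lower to 1999 and 2431, the deposited scale turned it to 1382 and 1908, and the deposited scale turned the KPAT split from KPT from 1520 and 1232 to 1012 and 1108.

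Members lower in KPAT against KPT (0) were 1 on the deposited scale, 1 without KPT 3, KAT 2 and KPAT 5, 2 in DESeq2, and 0 to 2 with 1 left out, and members higher (1) were 1 to 2. Members lower in KAT against KPT (3) were 1 with quantile scaling and 2 to 4 with 1 left out. Members higher in KPAT against KAT (0) were 1 with array weights. Correlated pairs (3) were 1 on group residuals and 2 to 6 with 1 left out (5 without KPT 1, 6 without KPT 4 or KPAT 2). The cause of these shifts was not tested. Deviations of same-numbered tumours correlated over 0.1 in 2, 3 and 0 of 5 pairs. That count has no null to be set against, so it cannot decide whether replicate numbers pair the tumours. With the replicate block 2248, 4313 and 7 genes were called, and the members called were as many as without it.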
